A study of Rattus norvegicus with 36 samples.

Results

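The Cyp2c genes encode one subfamily of the cytochrome P450 enzymes of the rat liver. They were taken as every probe set to which the array's annotation gave a single gene symbol starting with Cyp2c. This gave 7 genes with 1 probe set each, Cyp2c6v1, Cyp2c11, Cyp2c7, Cyp2c13, Cyp2c12, Cyp2c22 and Cyp2c23, of 14217 genes that the array named by a single symbol. All 7 passed into the tests, because no filter on low signal was used.

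The study profiled liver RNA with 36 Affymetrix 3' arrays, 6 for each of 6 groups of male Harlan Sprague Dawley rats that were 7 weeks old at the start. Dosed animals were gavaged on 5 consecutive days with decabromodiphenyl ether (decaBDE), a flame retardant rich in bromine, carried in corn oil at 5 ml/kg. Each dose was 959, 95.9, 9.59, 0.959 or 0.1 mg/kg of body weight. Vehicle animals received the corn oil alone (0 mg/kg). Tissue came from the left lobe 1 day after dosing ended, so all groups shared the sex, age, diet, oil and schedule. The labels number 6 samples per group without saying outright that each came from its own rat, so p-values measure the spread between these arrays.

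P450 enzymes of the Cyp2c subfamily sit in the endoplasmic reticulum of hepatocytes and oxidise steroids, fatty acids, retinoids and many foreign chemicals, with electrons passed on by P450 reductase and cytochrome b5. In the rat several of them differ between the sexes under the control of the growth hormone secretion pattern. Some are also induced through the xenobiotic receptors CAR (Nr1i3) and PXR (Nr1i2), which many halogenated compounds activate.

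In the RefSeq gene order of assembly GRCr8 all 7 genes lay on chromosome 1. Cyp2c11 came first, then, with 13 other protein-coding genes between, Cyp2c6v1 and its direct neighbour Cyp2c7. Among those 13 were Cyp2c24, Cyp2c55 and Cyp2c66, for which the rule used here found no probe set. After 2 more genes, among them Cyp2c7l1, also without such a probe set, came Cyp2c12, Cyp2c13 and Cyp2c22 in a row. Cyp2c23 lay 51 genes further on. The RefSeq promoter table of GRCr8 held 6 of the 7 genes, all but Cyp2c6v1. Shown here are 300 bases, 250 before and 50 after the annotated start, of Cyp2c11, whose mRNA rose at 959 mg/kg, and of its cluster relatives Cyp2c7 and Cyp2c13, which did not pass the test at any dose. They lie at chr1:246174966-246175265 on the plus strand, chr1:247966144-247966443 on the plus strand and chr1:248787139-248787438 on the minus strand, and each is written 5′ to 3′ along its gene. Capitals mark every match, on either strand, to AGGTCA or AGTTCA (half-sites bound by nuclear receptors), TTCNNNGAA (the STAT5 motif), CAAAG (the core of HNF4 half-sites) or TATAAA (the TATA box).
Cyp2c11: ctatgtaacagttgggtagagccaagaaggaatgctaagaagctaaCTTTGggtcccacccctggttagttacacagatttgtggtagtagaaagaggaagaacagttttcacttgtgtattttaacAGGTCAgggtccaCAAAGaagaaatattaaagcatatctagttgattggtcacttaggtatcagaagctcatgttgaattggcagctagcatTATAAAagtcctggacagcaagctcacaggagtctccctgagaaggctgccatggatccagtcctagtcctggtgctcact
Cyp2c7: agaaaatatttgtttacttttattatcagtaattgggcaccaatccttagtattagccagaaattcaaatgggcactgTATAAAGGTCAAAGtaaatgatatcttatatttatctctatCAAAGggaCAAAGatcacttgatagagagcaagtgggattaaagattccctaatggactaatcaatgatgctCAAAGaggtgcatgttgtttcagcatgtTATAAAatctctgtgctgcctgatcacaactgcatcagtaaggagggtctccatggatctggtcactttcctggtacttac
Cyp2c13: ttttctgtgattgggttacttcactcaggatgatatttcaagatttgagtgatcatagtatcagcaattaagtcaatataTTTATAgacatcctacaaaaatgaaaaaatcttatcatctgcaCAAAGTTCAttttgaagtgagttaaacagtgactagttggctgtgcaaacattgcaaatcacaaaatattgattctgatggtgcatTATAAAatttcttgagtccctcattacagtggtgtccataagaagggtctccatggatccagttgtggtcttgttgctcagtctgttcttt

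The letters AGGTCA occurred in the promoters of 3 of the 6 genes and in 16.2% of all 33469 promoters of the table. In Cyp2c11 their first base lay at -123 from the start and in Cyp2c7 at -167, while Cyp2c22 held them on the opposite strand at -30. The variant AGTTCA was found in Cyp2c13 at -124, in Cyp2c12 at -135 and in Cyp2c22, 3 of 6 against 14.5% of all promoters. CAAAG was present in 6 of 6 (53.8% of all), and overlapped the half-site in Cyp2c7, Cyp2c12 and Cyp2c13. TATAAA was present in 5 of 6 (14.2% of all), at -31 in both Cyp2c11 and Cyp2c7 and at -41 in Cyp2c13, and was missing from the Cyp2c23 window. TTCNNNGAA was found in 0 of 6 (8.87% of all). These matches describe the letters in 300-base windows and are not measured binding sites.

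Deposited signals were log2 values from robust multi-array averaging (RMA), in which a difference of 1 is a doubling. Across arrays the medians lay between 5.12 and 5.21 and correlations between 0.988 and 0.996. A single array stood apart, 0.1 mg/kg replicate 6, with an estimated array weight of 0.517 and a score of -28.3 on a first principal component that held 9.94% of the variance. Leaving it out changed no count of Cyp2c genes called in any of the 8 comparisons below. Hepatocyte markers (5 of 6 measured) had a mean signal between 14.28 and 14.40 in every array, as liver tissue calls for. Of 28 measured markers of 7 cell types, 0 passed the limma test at an adjusted p under 0.05 at any dose. Of all probe sets 0% to 0.116% passed per dose. An unadjusted p under 0.05 was found for 5, 8, 4, 6 and 4 markers from 0.1 to 959 mg/kg. The shares of all probe sets were 3.79%, 6.06%, 8.61%, 7.01% and 6.08%. The 5 Kupffer cell and macrophage markers had a median log2 difference from vehicle of -0.486 at 0.1, -0.498 at 0.959, -0.283 at 9.59, -0.166 at 95.9 and -0.211 at 959 mg/kg. Of these, 3 had an unadjusted p under 0.05 at 0.1 and 0.959 mg/kg and 0 at the higher doses. The 5 endothelium markers had a median of -0.209 at 0.959 mg/kg, where 3 had such a p, and -0.0955 at 959 mg/kg. The 3 lymphocyte markers had a median of -0.264 at 0.959 mg/kg, where 2 had such a p and 1 was higher than vehicle. The 3 cholangiocyte markers had a median of 0.289 at 95.9 and 0.326 at 959 mg/kg, with unadjusted p under 0.05 for 3 of 3 at 959 mg/kg and over dose rank, and a mean signal of 5.75 to 6.41 in vehicle and 5.86 to 6.91 at 959 mg/kg. The 5 stellate cell and fibroblast markers had a median of 0.321 at 95.9 mg/kg, where 4 of 5 had an unadjusted p under 0.05, and 0.0692 at 959 mg/kg. Signal at the 3' end of the actin control exceeded that at its 5' end by a mean of 1.16 in vehicle and by 1.14 to 1.24 in the dose groups. The part of cell makeup and RNA quality in the Cyp2c results was not tested, and in bulk liver fewer cells of a type and less RNA per cell cannot be told apart.

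All 7 probe sets were bright. The median probe set of the array had a mean signal of 5.16, while the Cyp2c means ran from 11.31 for Cyp2c12 to 14.04 for Cyp2c6v1, and 2.19% and 0.106% of all probe sets had a higher mean. A probe set's brightness also depends on its probes, so these signals give no order of abundance among the genes. The genes were set apart from each other by how much they varied within a dose group. For Cyp2c13 the SD within groups was 0.0558, and 92.2% of the 1613 probe sets with a mean of at least 10 varied more. Cyp2c6v1 and Cyp2c11 had SDs of 0.0671 and 0.0674. The brightest probe sets of the array had the smallest SDs, so such shares also depend on brightness. Spread beside probe sets of like brightness was not tested. Cyp2c12 had an SD of 0.493, which only 1.49% of those probe sets exceeded, and its 36 arrays spanned 1.70 log2 units against 0.24 for Cyp2c13. In between lay Cyp2c23 with 0.111, Cyp2c7 with 0.154 and Cyp2c22 with 0.173, against a median of 0.0922 over the bright probe sets. Only RMA values were used, so how near these signals came to the scanner's limit was not tested.

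**Figure D1:**
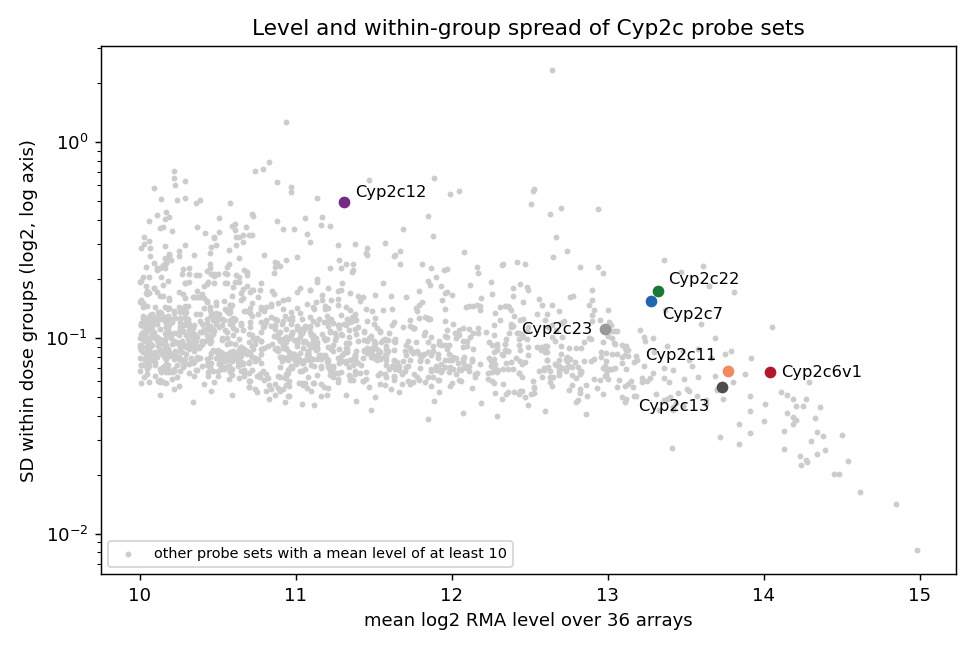
SD within dose groups (log2 units, log axis) against the mean log2 RMA signal over 36 arrays, 1 point per probe set with a mean signal of at least 10, with the 7 Cyp2c probe sets in colour. Cyp2c12 lies high at 0.493 and Cyp2c13 low at 0.0558, and the brightest probe sets on the array have the smallest SDs.

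The main question of the design was which transcripts differ between each dose and vehicle. Cyp2c6v1 passed the test with a rise at each dose from 0.959 mg/kg upward, and Cyp2c11 at 959 mg/kg only. At 959 mg/kg the rises were 34.2% and 17.7% in linear signal. The other 5 Cyp2c genes did not pass the test at any dose. Each comparison was a limma contrast with p-values adjusted by Benjamini-Hochberg over 31042 probe sets, and a probe set was called at an adjusted p under 0.05. At 0.1 mg/kg 0 of the 7 genes were called, against 0% of all probe sets. There 0 of the 7 also had an unadjusted p under 0.05, against 3.79% of all probe sets, and a fit without variance moderation called 0. At 0.959 mg/kg 1 of 7 was called (0.029% of all probe sets), 1 at 9.59 mg/kg (0.116%) and 1 at 95.9 mg/kg (0.0902%), each time Cyp2c6v1. At 959 mg/kg 2 of 7 were called, against 0.11% of all. The F-test for any dose called the same 2 of 7, Cyp2c6v1 and Cyp2c11, against 0.135% of all, and the test for a straight line in dose rank called these 2 as well, against 0.393%. Every Cyp2c call was a rise. The median change of the 7 genes was 0.0998 at 0.959, -0.00843 at 9.59, 0.0561 at 95.9 and 0.0476 at 959 mg/kg, beside medians over all probe sets between -0.00368 and 0.00588. All 5 dose comparisons use the same 6 vehicle arrays and so are not independent of each other.

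**Figure D2:**
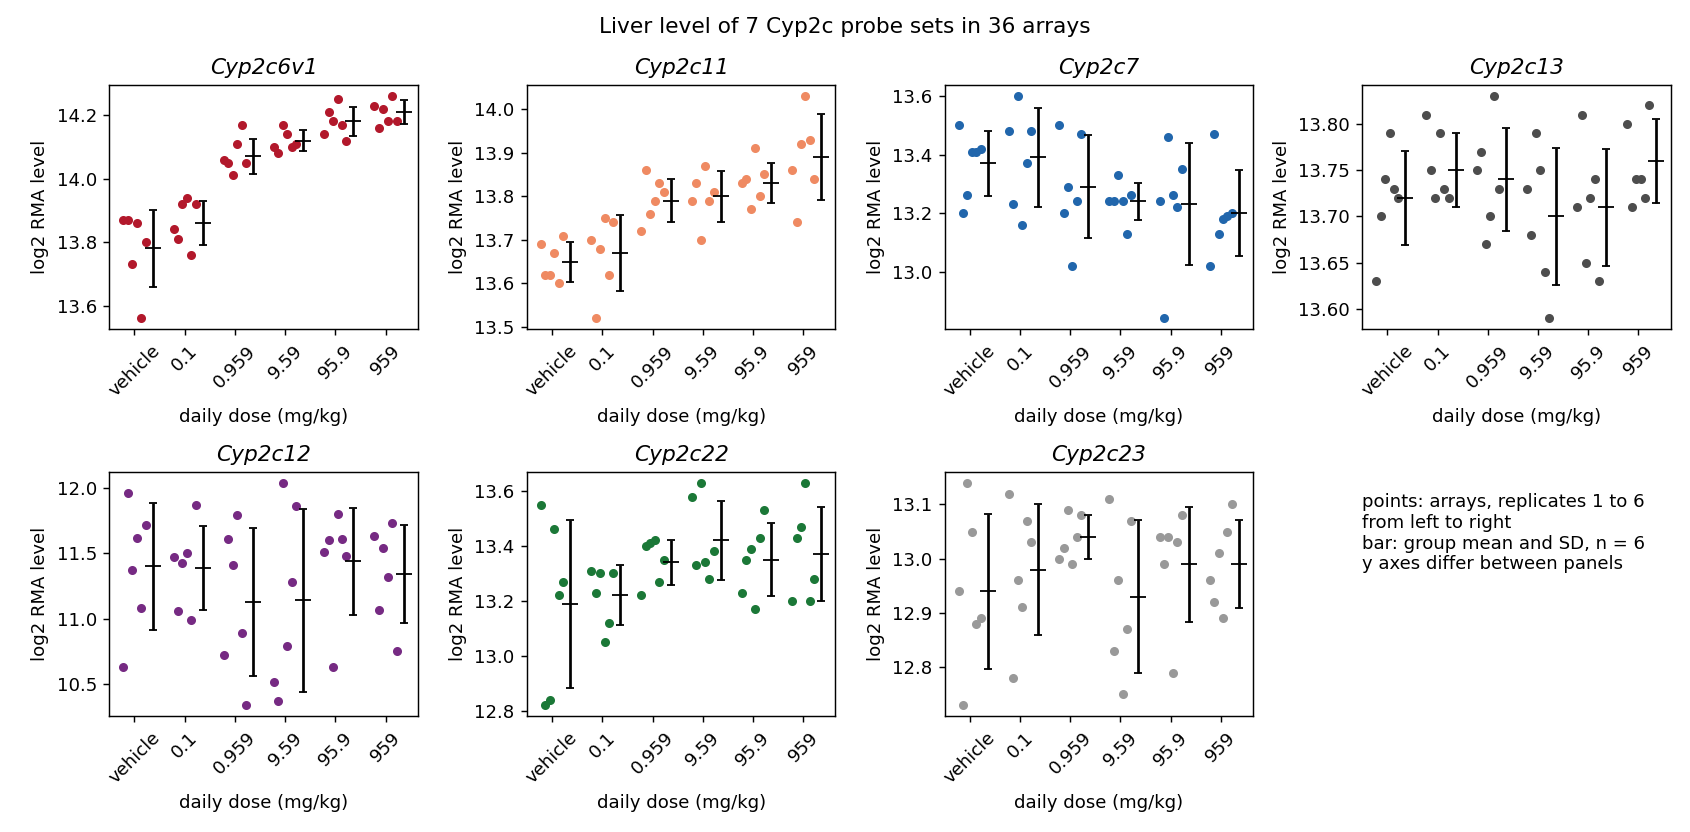
Log2 RMA signal of each Cyp2c probe set in 36 arrays by daily dose in mg/kg; points are arrays, bars are the group mean and SD (n = 6), and the vertical axes differ between panels. Cyp2c6v1 climbs from a vehicle mean of 13.78 to 14.21 at 959 mg/kg and Cyp2c11 from 13.65 to 13.89, while Cyp2c12 points scatter from 10.34 to 12.04.

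Cyp2c6v1 encodes a P450 of both sexes that responds to phenobarbital-type inducers, and its probe set (1370580_a_at, Entrez Gene 293989) gave the largest called change of the 7 at each dose from 0.959 mg/kg upward. In vehicle its log2 signal ran from 13.56 over a median of 13.83 to 13.87 (mean 13.78 ± 0.12, SD, n = 6). At 0.1 mg/kg it ran from 13.76 over 13.88 to 13.94, which overlapped vehicle. At 0.959 mg/kg the lowest array was at 14.01, the median at 14.06 and the highest at 14.17, all above every vehicle array and every 0.1 mg/kg array. The 3 higher doses stayed on this upper side. Signals were 14.08, 14.11 and 14.17 (lowest, median, highest) at 9.59 mg/kg. They were 14.12, 14.18 and 14.25 at 95.9 mg/kg. The highest dose gave 14.16, 14.20 and 14.26 (mean 14.21 ± 0.038, SD, n = 6).

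Against vehicle the limma log2 change of Cyp2c6v1 was 0.08 at 0.1 mg/kg (SE 0.0462, adjusted p = 1) and 0.29 at 0.959 mg/kg (adjusted p = 0.00216). It was 0.33 at 9.59 mg/kg (limma, adjusted p = 7.50e-05) and 0.40 at 95.9 mg/kg (adjusted p = 3.28e-06). It reached 0.42 at 959 mg/kg, with a 95% interval of 0.33 to 0.52, or 1.34-fold (limma, adjusted p = 4.50e-07). Only 4 probe sets of 31042 had a smaller p in that comparison. From 0.959 mg/kg upward all 6 arrays of each group lay above every vehicle array. The share of all probe sets for which this held was 0.267% at 0.959, 0.435% at 9.59, 0.332% at 95.9 and 0.283% at 959 mg/kg. The slope over dose rank was 0.0887 log2 units per step (SE 0.00782, limma, adjusted p = 2.06e-09).

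In order of group means Cyp2c6v1 followed the dose, with 959 highest and vehicle lowest, but most neighbours in that order were close. The step from 0.1 to 0.959 mg/kg was 0.21, larger than either group's SD and without overlap. From 9.59 to 95.9 mg/kg the difference was 0.06, beyond the larger SD of 0.046 although the arrays overlapped. The other 3 steps were within the larger SD of the groups they join. A comparison that leaves the vehicle arrays out, 959 against 0.959 mg/kg, gave 0.13 (95% interval 0.04 to 0.23), which did not pass (limma, adjusted p = 0.934). In that comparison 0 of the 7 genes were called, against 0.00644% of all probe sets. There 2 of the 7 had an unadjusted p under 0.05, against 5.25% of all probe sets, and a fit without moderation called 0. With a fit of only the 12 arrays compared, Cyp2c6v1 kept its size but lost its call at 0.959 mg/kg (limma, adjusted p = 0.324) and at 9.59 mg/kg (0.0854).

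Cyp2c11, probe set 1387328_at (Entrez Gene 29277), encodes the main male-specific P450 of adult rat liver, which hydroxylates testosterone. Its vehicle signals ran from 13.60 over a median of 13.64 to 13.71 (mean 13.65 ± 0.0459, SD, n = 6). At 0.1 mg/kg they were 13.52, 13.69 and 13.75, on both sides of vehicle. At 0.959 mg/kg they were 13.72, 13.80 and 13.86, clear of vehicle. The arrays of the next group overlapped vehicle by 1 array and those of the last 2 groups did not overlap it. At 9.59 mg/kg the values were 13.70, 13.80 and 13.87, and at 95.9 mg/kg 13.77, 13.83 and 13.91. At 959 mg/kg they were 13.74, 13.89 and 14.03 (mean 13.89 ± 0.0982, SD, n = 6).

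The log2 change of Cyp2c11 was 0.02 at 0.1 mg/kg, 0.14 at 0.959 mg/kg, 0.15 at 9.59 mg/kg and 0.18 at 95.9 mg/kg, none of which passed (limma, adjusted p = 1, 0.756, 0.311 and 0.184, SE 0.0463). At 959 mg/kg it was 0.24, with a 95% interval of 0.14 to 0.33, or 1.18-fold (limma, adjusted p = 0.0163). No array overlapped vehicle at 0.959, 95.9 and 959 mg/kg, while 5 of 6 lay above its range at 9.59 mg/kg and 2 of 6 at 0.1 mg/kg. The 95% interval at 0.959 mg/kg was 0.05 to 0.23. Directly compared, 959 mg/kg lay above 0.959 mg/kg by 0.09 (95% interval 0.00 to 0.19), which did not pass (limma, adjusted p = 0.934). The slope of Cyp2c11 over dose rank was 0.0479 per step (SE 0.00783, limma, adjusted p = 0.000639). Its group means had the same dose order as those of Cyp2c6v1, and only the step from 0.1 to 0.959 mg/kg, of 0.12, exceeded the larger SD, with overlapping arrays.

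The change of Cyp2c11 at 959 mg/kg stayed between 0.21 and 0.26 without any one of the 12 arrays compared or the array that stood apart, but its call did not always hold. The call was lost (limma, adjusted p 0.0549 to 0.0853) without any one of vehicle replicates 3 and 5 or 959 mg/kg replicates 3, 4 and 5, and with only the 12 arrays compared (adjusted p = 0.306). The F-test (F = 8.07, limma, adjusted p = 0.0308) lost its call without any one of 12 arrays: vehicle replicates 2, 3, 4 and 5, 0.1 mg/kg replicates 2, 3 and 5, 95.9 mg/kg replicates 2 and 6, and 959 mg/kg replicates 3, 4 and 5. Its adjusted p was then 0.0501 to 0.0873, and it was 0.0644 when quantile normalization was repeated. The slope of Cyp2c11 over dose rank passed without any 1 of the 36 arrays (limma, largest adjusted p = 0.00267), but the slope over dose in mg/kg did not pass (adjusted p = 0.183). For Cyp2c6v1 no call was lost when any 1 array was left out.

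Cyp2c7, probe set 1370241_at (Entrez Gene 29298), encodes a P450 that oxidises retinoic acid and is more abundant in females. Its means were lower at the 4 higher doses than in vehicle, and the comparison did not pass at any dose. Vehicle arrays ran from 13.20 over a median of 13.41 to 13.50 (mean 13.37 ± 0.112, SD, n = 6), and 0.1 mg/kg arrays from 13.16 over 13.42 to 13.60. At 0.959 mg/kg the values were 13.02, 13.26 and 13.50, and at 9.59 mg/kg 13.13, 13.24 and 13.33. At 95.9 mg/kg they were 12.84, 13.25 and 13.46, and at 959 mg/kg 13.02, 13.18 and 13.47. Each group overlapped vehicle, although 5 of the 6 arrays at 959 mg/kg lay below every vehicle array. The log2 change at 959 mg/kg was -0.17 (95% interval -0.35 to 0.01, limma, adjusted p = 0.829), and the slope over dose rank was -0.0391 per step (limma, adjusted p = 0.367).

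Unequal change in the signals of the 3 genes was tested on the difference of 2 signals within each array. An exact two-sided permutation test was used, over every assignment of 6 dose and 6 vehicle arrays. There were 15 tests, adjusted together, and the smallest unadjusted p this design can give is 0.00216. The 3 genes were chosen with earlier results of these data known, so the p-values are not independent of that choice. Other pairs of Cyp2c genes were not tested. Cyp2c6v1 minus Cyp2c7 had a mean of 0.41 in vehicle and 1.01 at 959 mg/kg, an increase of 0.60 (SE 0.0982, exact permutation, adjusted p = 0.00649), and none of the 6 dosed arrays overlapped vehicle. The increase was 0.06 at 0.1 mg/kg (exact permutation, adjusted p = 0.573), 0.38 at 0.959 mg/kg (0.0118), 0.46 at 9.59 mg/kg and 0.54 at 95.9 mg/kg (both 0.00649).

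Cyp2c6v1 minus Cyp2c11 widened less. It rose from 0.13 in vehicle by 0.15 at 0.959 mg/kg (exact permutation, adjusted p = 0.0118), by 0.19 at 9.59 mg/kg (0.00649), by 0.22 at 95.9 mg/kg (0.00649) and by 0.19 at 959 mg/kg (0.0118). At 0.1 mg/kg the difference was 0.07 (exact permutation, adjusted p = 0.23). Cyp2c11 minus Cyp2c7 rose from 0.28 in vehicle by 0.27 at 9.59 mg/kg (exact permutation, adjusted p = 0.0108), and by 0.32 at 95.9 and 0.41 at 959 mg/kg (both 0.0118). At 0.959 mg/kg it rose by 0.22 (exact permutation, adjusted p = 0.0487), a call that was lost (adjusted p 0.0595 to 0.0947) without any one of vehicle replicates 1, 3, 4, 5 and 6 or 0.959 mg/kg replicates 2, 3, 4 and 5. Change within an array shows only that the probe set signals changed unequally and not that one of the genes stayed level. Whether the probe sets respond equally to a change in RNA was not tested.

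**Figure D3:**
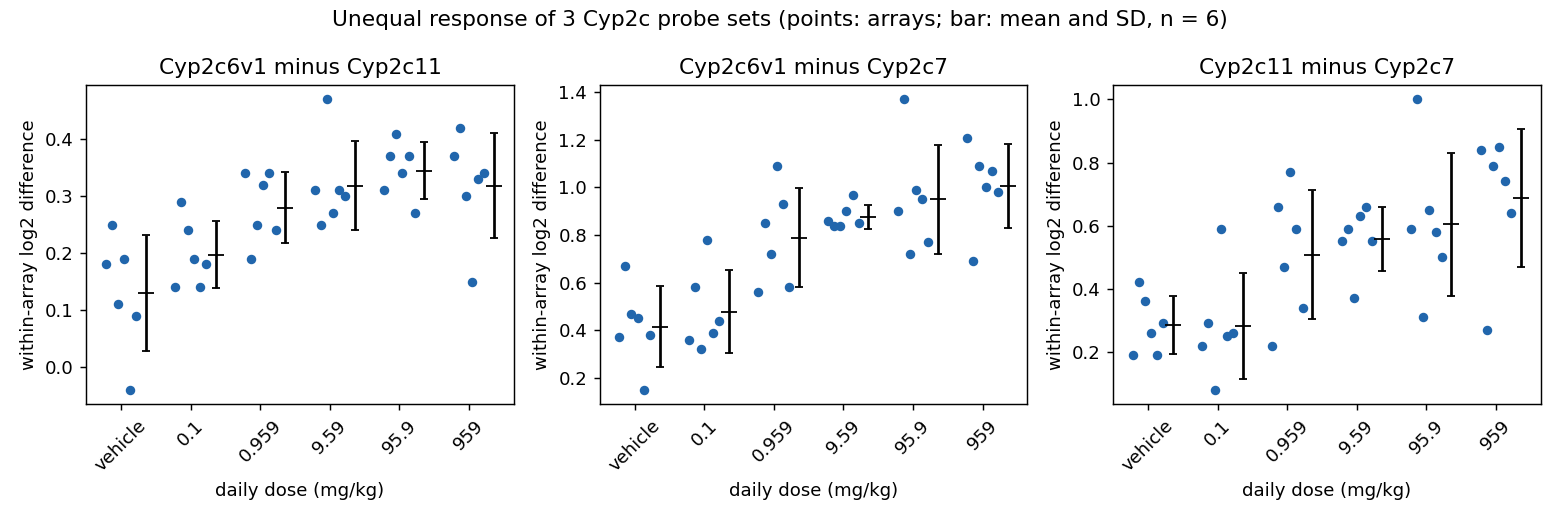
Difference of 2 log2 signals within each array for the 3 pairs of Cyp2c6v1, Cyp2c11 and Cyp2c7, by daily dose in mg/kg; points are arrays and bars the mean and SD (n = 6). Cyp2c6v1 minus Cyp2c7 moves from a mean of 0.41 in vehicle to 1.01 at 959 mg/kg, and at 0.1 mg/kg each pair overlaps vehicle.

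Cyp2c13 and Cyp2c12 encode the other classical sex-dependent members, the first male-specific and the second female-specific in adult rats. Neither passed a test. Cyp2c13, probe set 1370495_s_at (Entrez Gene 171521), had vehicle signals of 13.63, 13.73 and 13.79 (lowest, median, highest). With 959 mg/kg they were 13.71, 13.74 and 13.82, and its change of 0.04 had a 95% interval of -0.05 to 0.12 (limma, adjusted p = 0.949). The ending _s_at marks probes that can match more than 1 transcript, and how far near-identical Cyp2c relatives bind each other's probes was not tested. For Cyp2c13 the changes at the other 4 doses lay between -0.02 and 0.03.

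Cyp2c12, probe set 1368155_at (Entrez Gene 25011), varied most from array to array. Its vehicle signals were 10.63, 11.49 and 11.96 (SD 0.483, n = 6) and those at 959 mg/kg 10.75, 11.43 and 11.73. At 9.59 mg/kg the arrays spread from 10.37 to 12.04 (SD 0.701, n = 6), and every dose group overlapped vehicle. The change at 959 mg/kg was -0.06 with a 95% interval of -0.59 to 0.48 (limma, adjusted p = 0.991), so a change of the size seen for Cyp2c6v1 would lie inside this interval.

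Cyp2c22, probe set 1387949_at (Entrez Gene 171518), another retinoic acid hydroxylase of the liver, had means above vehicle at all 5 doses without a call. Vehicle signals were 12.82, 13.24 and 13.55 (SD 0.306, n = 6), and those at 9.59 mg/kg, where the mean was highest, 13.28, 13.36 and 13.63. With 959 mg/kg they were 13.20, 13.35 and 13.63. The groups overlapped throughout, with 2 vehicle arrays, at 12.82 and 12.84, below all dosed arrays. The change was 0.23 at 9.59 mg/kg (95% interval 0.03 to 0.43, limma, adjusted p = 0.496) and 0.18 at 959 mg/kg (95% interval -0.02 to 0.37, adjusted p = 0.854). Over dose rank the slope was 0.0389 per step (limma, adjusted p = 0.456).

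Cyp2c23, probe set 1367988_at (Entrez Gene 83790), encodes an arachidonic acid epoxygenase best known from the kidney. Vehicle signals were 12.73, 12.91 and 13.14, and those at 959 mg/kg 12.89, 12.98 and 13.10, inside the vehicle range. Its change at 959 mg/kg was 0.05 (95% interval -0.09 to 0.18, limma, adjusted p = 0.963), and the furthest mean was 0.10 above vehicle at 0.959 mg/kg (adjusted p = 0.899).

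**Figure D4:**
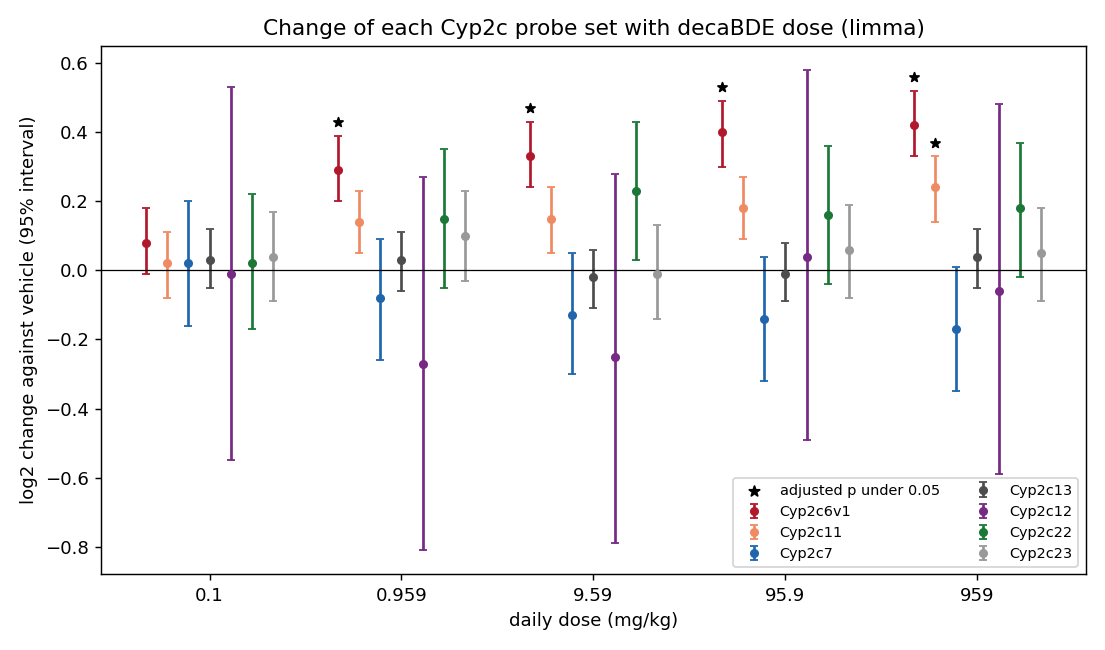
Limma log2 change against vehicle with 95% intervals for the 7 Cyp2c probe sets at each daily dose in mg/kg, with stars at adjusted p under 0.05. Cyp2c6v1 is starred at 4 doses and Cyp2c11 at 959 mg/kg only, and the Cyp2c12 intervals are the widest, from -0.59 to 0.48 at 959 mg/kg.

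Within dose groups the 7 genes did not vary together in any pair that passed. After each group mean was subtracted, the highest of 21 correlations over 36 arrays was that of Cyp2c6v1 with Cyp2c11 (r = 0.37, rho = 0.43, permutation, adjusted p = 0.232 and 0.122, and r = 0.34 without the 2 arrays farthest from the median). Cyp2c7 correlated with Cyp2c22 at r = 0.36 (rho = 0.41, permutation, adjusted p = 0.232 and 0.122) and with Cyp2c12 at r = -0.36 (rho = -0.31, permutation, adjusted p = 0.232 and 0.371). Without the 2 farthest arrays these were 0.40 and -0.36. Of the 21 pairs, 0 passed by either measure.

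The genes most like each of the 3 main members were sought among 5908 named genes with a mean signal of at least 7, as a description over 36 arrays. Cyp2c6v1 was most like Cyb5a, which encodes cytochrome b5 (r = 0.90), followed by Mmgt1 and Cyp3a23-3a1 (both 0.88). Cyp2c11 was also most like Cyb5a (r = 0.80), followed by Cyp3a23-3a1 (0.79) and Parp1 (0.78). These levels share the dose groups. With the group means subtracted, the highest values for Cyp2c6v1 were with Cyp3a2 (r = 0.74), Syap1 (0.72) and Chac2 (0.63). For Cyp2c11 they were with Insig2 (r = 0.73), Rnf139 and Nr0b2 (both 0.69). Cyp2c7 had other companions, Plbd1 (r = 0.72), AKR1C3l1 (0.68) and Igfals (0.67) by level, and AKR1C3l1 (0.75), Plbd1 (0.73) and Ppp2r5a (0.69) with group means subtracted.

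Among genes of electron transfer to P450 enzymes and of heme metabolism, 2 also rose at 959 mg/kg and 3 rose over dose rank. Of the 14 measured, 2 were called at 959 mg/kg, both higher, against 0.11% of all probe sets. The median change of the 14 was 0.0701, beside -0.00105 over all probe sets. Cyb5a rose by 0.24 (SE 0.0336, limma, adjusted p = 5.31e-05) and Por, the P450 reductase, by 0.58 (SE 0.103, adjusted p = 0.00473), each with 6 of 6 arrays above vehicle. At 9.59 mg/kg both were called too, and at 95.9 mg/kg only Cyb5a was. Over dose rank these 2 and Blvrb, a biliverdin reductase, were called, against 0.393% of all probe sets. Blvrb had a slope of 0.0395 per step (SE 0.00876, limma, adjusted p = 0.0235) and a change of 0.17 at 959 mg/kg (adjusted p = 0.349), with 6 of 6 arrays above vehicle. Alas1, the rate-limiting enzyme of heme synthesis, had a change of 0.55 at 959 mg/kg without a call (limma, adjusted p = 0.478).

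Genes taken here as targets of CAR and PXR, a list that shares Por and Alas1 with the one above, included further rises. Whether each listed gene is a target of these receptors was not tested. Of 18 measured, 7 were called higher and 0 called lower at 959 mg/kg, against 0.11% of all probe sets called. With or without a call, 16 of the 18 had a change above 0, and the median change was 0.31. At 0.959, 9.59 and 95.9 mg/kg 2, 7 and 5 were called higher, against 0.029%, 0.116% and 0.0902% of all. Over dose rank 11 were called higher, against 0.393%. Cyp3a23-3a1, a steroid and drug hydroxylase, rose by 0.64 at 959 mg/kg (SE 0.0651, limma, adjusted p = 1.06e-07) and had already risen by 0.41 at 0.959 mg/kg (adjusted p = 0.00216). Ces2c, a carboxylesterase, rose by 0.95 (limma, adjusted p = 7.81e-06), Ugt2b1, a glucuronosyltransferase, by 0.90 (1.94e-05) and Abcc3, an export pump, by 1.17 (0.000551). Cyp2c6v1, with 0.42 at this dose, thus lay above the list's median and Cyp2c11, with 0.24, below it. Without variance moderation 1, 6, 5 and 7 genes of the list were called at 0.959, 9.59, 95.9 and 959 mg/kg.

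**Figure D5:**
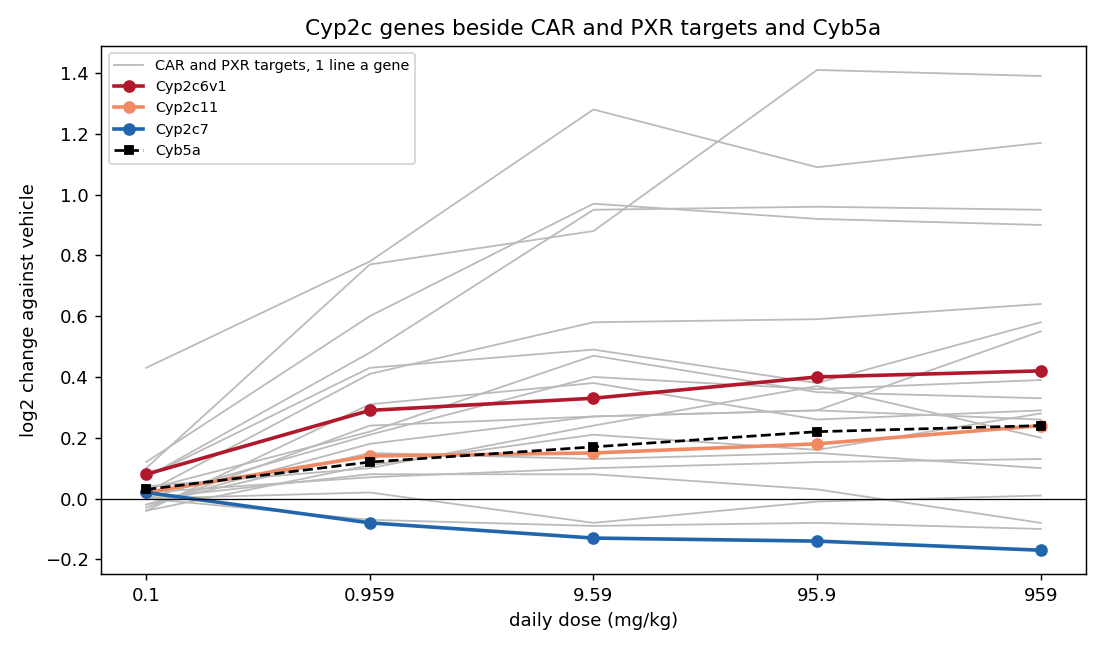
Limma log2 change against vehicle at each daily dose in mg/kg for Cyp2c6v1, Cyp2c11, Cyp2c7 and Cyb5a. Grey lines are 18 genes taken as CAR and PXR targets. Cyp2c11 and Cyb5a both reach 0.24 at 959 mg/kg, Cyp2c6v1 reaches 0.42, Cyp2c7 goes to -0.17, and most grey lines end above 0 with a median of 0.31.

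The receptors and hepatocyte factors that act on Cyp2c genes were not called. Of 13 measured, 0 passed at 959 mg/kg, against 0.11% of all probe sets (limma, 0 without moderation). An unadjusted p under 0.05 was found for 2, against 6.08% of all probe sets. The median change of the 13 was -0.00902. Nr1i3, which encodes CAR, had a change of 0.42 (SE 0.186, limma, adjusted p = 0.782) and Nr1i2, which encodes PXR, one of -0.01 (adjusted p = 0.994). Nr3c1, the glucocorticoid receptor, had a change of -0.26 (SE 0.0783, adjusted p = 0.395), and Hnf4a, a factor of hepatocyte identity, one of -0.17 (adjusted p = 0.875).

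Genes of growth hormone signalling and sex-dependent expression were not called at any single dose either. Of 18 measured, 0 passed at 959 mg/kg, against 0.11% of all probe sets (limma, 0 without moderation). An unadjusted p under 0.05 was found for 1, against 6.08% of all probe sets. The median change of the 18 was -0.0585. Male-specific Cyp3a2 was the exception in the dose-rank test, against 0.393% of all probe sets called. It is also on the list of CAR and PXR targets, so the same call is counted there. Its slope was 0.029 per step (SE 0.00674, limma, adjusted p = 0.0367) and its change 0.13 at 959 mg/kg (adjusted p = 0.349). The growth hormone receptor Ghr had a change of -0.13 (adjusted p = 0.836) and Igf1, its main liver target, one of -0.08 (adjusted p = 0.877).

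Outside the Cyp2c subfamily 24 genes had symbols starting with Cyp2, of which 18 belong to the CYP2 family and the rest to families such as CYP26 and CYP27. At 959 mg/kg 0 of the 24 were called, against 0.11% of all probe sets (limma, 0 without moderation). An unadjusted p under 0.05 was found for 3, against 6.08% of all probe sets. The median change of the 24 was 0.0285. Cyp2a1, a steroid hydroxylase, had changes of 0.37 at 95.9 and 0.20 at 959 mg/kg (adjusted p = 0.214 and 0.827), and passed at 95.9 mg/kg without the array that stood apart. Cyp2b3 had a change of -0.10 at 959 mg/kg (adjusted p = 0.725). Cyp2a1 and Cyp2b3 are also on the list of genes taken as CAR and PXR targets. That 2 of 7 Cyp2c genes and 0 of these 24 were called is a description, and the difference was not tested. Only genes with a probe set named by a single symbol could be among the 24. Cyp2b1 and Cyp2b2 were neither among them nor among the listed CAR and PXR targets, so these counts do not cover them. Among 11 markers of pericentral hepatocytes, where P450 enzymes are concentrated, 2 were called at 959 mg/kg, both higher, against 0.11% of all probe sets. Without moderation 1 was called. Cyp1a2, a target of the dioxin receptor, rose by 0.53 (SE 0.0539, limma, adjusted p = 1.06e-07) and Slc1a2, a glutamate transporter, by 0.53 (adjusted p = 0.0488), with a median over the 11 of 0.0455.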

How the data were processed

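The authors deposited log2 signals of 31099 probe sets in 36 arrays, made by RMA with the affy package per the submitters' processing notes, which give no versions. RMA corrects background, equalises the distribution of signals between arrays and summarises the probes of a set, so a shift shared by most genes would be removed and differences of very bright probe sets can be compressed. The deposited log2 values were used as they stand, with 0 sample columns unused. Groups and replicate numbers came from the sample titles.

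After 57 array controls were left out, 31042 probe sets were fitted in limma 3.58.1 (R 4.3.3) with 1 mean per group and shared spread (30 residual and 5.12 prior degrees of freedom). The series' design text names maanova at a false discovery rate of 5%, and limma took its place. Probe sets took their gene from the platform annotation, which named 20826 by 1 symbol, 436 by several and 9780 by none. A gene with several probe sets was described by the one with the highest mean. Entrez Gene numbers matched the RefSeq gene table (GRCr8) for 7 of 7 Cyp2c genes, and the only coordinates given are those of the RefSeq promoter windows in that assembly, since the array's files name no build.

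The Cyp2c genes and the gene lists were chosen with earlier results of these data known. Every Cyp2c gene measured here is named, and from each list up to 4 genes with the smallest unadjusted p at 959 mg/kg. Nr1i2 is named as well because it encodes PXR. Correlations used 100000 permutations. Scripts were tested on simulated data. Deviations of same-numbered arrays from their group means correlated between -0.239 and 0.375. The means per replicate number ran from -0.0445 to 0.00498, so same-numbered arrays did not deviate together on average. Arrays with different numbers were not compared in this way. Alternatives were other normalizations, a filter on low signal, other variance models, array weights, a replicate block, other dose scales and leaving out arrays. The number of arrays limits the precision of each value.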

Additional observations from a re-analysis of the deposited data

Results flagged for a closer look

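Of 42 groups of 6 arrays tested for a single distant array, 2 had one, and chance alone marks about 1 in 20 groups. Cyp2c12 had its lowest array of the 95.9 mg/kg group at 10.63 (replicate 3), and the next lowest at 11.48, a gap of 0.725 of the group's range, above the 95% critical ratio. Cyp2c23 had its lowest array of the same dose group at 12.79 (replicate 4), and the next lowest at 12.99, a gap of 0.688 of the range.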

How the results depend on the processing

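Across the refits with all arrays, those of only the groups compared and other dose scales, 488 of 504 values of single Cyp2c genes kept their direction and their side of the threshold, 5 lost a call, 1 gained one, 10 uncalled values changed sign and 0 called values did. With arrays left out in turn 979 of 1043 were kept, 17 lost a call and 47 uncalled values changed sign. Repeated quantile normalization left 1 gene in the F-test. An intensity trend with robust estimation called 2 genes at 95.9 mg/kg, adding Cyp2c11 (limma, adjusted p = 0.0487). Fits of only the 2 groups compared called 0 genes at 0.959 mg/kg, 0 at 9.59 mg/kg and 1 at 959 mg/kg, with fewer arrays behind the spread. The trend over mg/kg called 1 gene. Leaving out 1 array gave counts of 1 to 2 at 959 mg/kg and 1 to 2 in the F-test, and an increase of Cyp2c11 minus Cyp2c7 between -0.06 and 0.04 at 0.1 mg/kg and between 0.17 and 0.28 at 0.959 mg/kg. The replicate block in limma changed no count of Cyp2c genes called. Paired by replicate number, the differences in response were the same in size and none passed. The smallest unadjusted p this pairing can give is 0.0312 (exact paired permutation). After adjustment over 15 tests a pass was possible only if more of the tests had reached this smallest p than did. No conclusion is drawn from the paired test. Same-numbered arrays also did not deviate together on average. Cyp2c6v1 minus Cyp2c11 was 0.15, 0.19, 0.22 and 0.19 at the 4 doses from 0.959 mg/kg upward, Cyp2c6v1 minus Cyp2c7 was 0.38, 0.46, 0.54 and 0.60, and Cyp2c11 minus Cyp2c7 was 0.22, 0.27, 0.32 and 0.41 (exact paired permutation, adjusted p 0.0586 or 0.0781). Other probe sets of the same gene could not be tried, as each gene had 1. The cause of the other changes was not tested.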
